A study of Mus musculus with 4 samples.

Results

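The genes described here encode the mouse receptors for the constant (Fc) part of immunoglobulin G: the ligand-binding chains Fcgr1, Fcgr3, Fcgr4 and Fcgr2b, and Fcer1g, the signalling chain that the first 3 of them use. They were taken by gene symbol, and all 5 were found, each as 1 row, among the 23284 gene rows of the expression tables. RNA was sequenced from mouse macrophages differentiated in the dish out of marrow precursors (BMDM) in 4 libraries with 1 library per group. The groups were Spic-/- cells with LPS, Spic-/- cells without LPS, control (Spic+/+) cells with LPS and control cells without LPS. LPS is a bacterial lipid that activates Toll-like receptor 4, and it was given at 100 ng/ml for 4 h. The titles label the libraries with LPS as 4 h and give those without LPS an earlier hour. A difference in culture or harvest time cannot be told apart from LPS in the comparisons with and without LPS below. The part of time in them was not tested. Every group had first received hemin, the iron-containing ring of haemoglobin, for 18 h at 40 µM per the protocol text (the sample descriptions give that number in mM), so no library shows cells without hemin. In the titles the knockout is abbreviated cKO, and the labels used here name neither the allele nor a Cre driver, an age or a strain, nor do they say how many animals gave cells to a library.

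Fc gamma receptors tie antibodies to phagocytes: a macrophage that meets particles or complexes coated with IgG takes them up and signals through these proteins. The activating receptors FcγRI (Fcgr1), FcγRIII (Fcgr3) and FcγRIV (Fcgr4) bind IgG and pair with the common gamma chain (Fcer1g), whose tail carries an immunoreceptor tyrosine-based activation motif (ITAM) that recruits the kinase Syk. FcγRIIb (Fcgr2b) binds IgG as well but carries an inhibitory motif (ITIM) in its own tail and recruits the lipid phosphatase SHIP1 (Inpp5d). The balance of the activating and the inhibitory chains is known to set the threshold at which immune complexes activate a macrophage. Spi-C (Spic) is an ETS-family transcription factor induced by heme and a relative of PU.1, and ETS factors bind DNA around the core GGAA.

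The activation and inhibition motifs are the parts of these chains that separate their roles, so the codons for them are shown, 5′ to 3′ on the minus strand of GRCm38.p6, with tyrosine codons in capitals. The ITAM codons of Fcer1g lie across an intron at chr1:171229889-171230072, and the ITIM codons of Fcgr2b lie in 1 exon at chr1:170961071-170961088.
Fcer1g ITAM: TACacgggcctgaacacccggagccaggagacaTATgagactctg
Fcgr2b ITIM: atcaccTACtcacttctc

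The genes for 4 of the 5 chains sit together on chromosome 1 within 276 kb. In GENCODE M21 on GRCm38.p6, Fcgr2b was placed at chr1:170958617-170976547 on the minus strand, Fcgr4 at chr1:171018920-171029761 on the plus strand, Fcgr3 at chr1:171051174-171064935 on the minus strand and Fcer1g at chr1:171229572-171234365 on the minus strand. Fcgr1 lies apart from them at chr3:96282909-96293969 on the minus strand. Fcgr2b and Fcgr3 are close relatives: their coding sequences were identical at 85.0% of 789 aligned bases, against 65.3% to 68.6% for the other pairs of ligand-binding chains. The longest run that both share is 129 bases of coding sequence, shown because a read from it cannot be told to come from one gene or the other. It covers chr1:170966674-170968081 in Fcgr2b and chr1:171054167-171057792 in Fcgr3, introns included.
Run shared by Fcgr2b and Fcgr3: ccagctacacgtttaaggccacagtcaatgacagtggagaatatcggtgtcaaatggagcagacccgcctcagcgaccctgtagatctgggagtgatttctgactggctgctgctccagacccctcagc

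Of all 75-base words in the Fcgr3 transcript 7.38% also occur in Fcgr2b, and 6.77% of those of Fcgr2b occur in Fcgr3. Fcgr1, Fcgr4 and Fcer1g shared no such word with another gene. The sources used here do not say how the authors divided reads that match 2 genes, so values of Fcgr2b and Fcgr3 carry that uncertainty. GENCODE also places an antisense transcript (Gm38204) opposite Fcgr2b that has no row in the tables.

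Levels are FPKM, mapped fragments scaled to transcript length and between libraries, as the authors deposited them. An FPKM can be compared between genes because it is per length. The libraries had 1 sample per group, so no result below has a replicate or a test. The intervals are 95% intervals of counting error only, made from estimated fragment numbers, and they say nothing of the spread between cultures. Differences are given as folds of FPKM and as log2 ratios of (FPKM + 1), which understate the change of low genes, and a gene was compared when it reached 5 FPKM in at least 1 of the 2 libraries. The spacing of low FPKM values gave 8.06 fragments per kilobase per FPKM in the Spic-/- library with LPS, 12.9 in the Spic-/- library without, 10.6 in the control library with LPS and 15.6 in the control library without LPS.

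Spic itself, the deleted gene, had 80.8 FPKM in Spic-/- cells with LPS, 15 FPKM in Spic-/- cells without LPS, 406 FPKM in control cells with LPS and 53.1 FPKM in control cells without LPS. Both knockout libraries were lower than their controls, by a log2 ratio of -2.32 with LPS and -1.76 without, and Spic RNA was still measured in both of them. All 10 macrophage markers were at 1 FPKM or more in every library, and the list summed to between 6783 and 11138 FPKM. The B cell list summed to between 1.34 and 4.78 FPKM, the T and NK cell list to at most 0.664 FPKM and the dendritic cell list to at most 1.14 FPKM. Mast cell and basophil markers summed to 19.2 FPKM in Spic-/- cells with LPS and 7.18 FPKM in control cells with LPS, nearly all from Hdc, the histidine decarboxylase gene (18.8 and 7.13 FPKM in that order), and without LPS to 0.341 FPKM in Spic-/- cells and 0.106 FPKM in control cells, with Fcer1a and Ms4a2, the other chains of the IgE receptor that shares Fcer1g, at 0 in all 4. Neutrophil markers summed to 155 FPKM with LPS and 67.5 FPKM without in Spic-/- cells, and to 265 FPKM with LPS and 69.7 FPKM without in control cells. S100a8, a calcium-binding protein of neutrophils and activated macrophages, made up most of the sums with LPS (114 against 18.5 FPKM without in Spic-/- cells, 214 against 20.2 FPKM without in control cells), while Mmp8 had 22.6 to 35.7 FPKM, S100a9 had 9.94 to 19.9 FPKM and Mpo, the granule peroxidase, was at 0. The part of these markers in the LPS ratios below was not tested. Stromal and endothelial markers summed to 353 FPKM in Spic-/- cells with LPS, 302 FPKM in Spic-/- cells without LPS, 609 FPKM in control cells with LPS and 565 FPKM in control cells without LPS.

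With LPS, mRNA of the inhibitory receptor was much higher and that of 2 of the 3 activating receptors was lower in both genotypes. Fcgr2b was 27.4-fold (24.6 to 30.5) higher in Spic-/- cells and 34.9-fold (31.1 to 39.4) higher in control cells, whereas Fcgr1 and Fcgr3 were lower and Fcgr4 differed little. Fcgr2b had 622 FPKM in Spic-/- cells with LPS and 22.7 FPKM in Spic-/- cells without LPS. It had 535 FPKM in control cells with LPS and 15.3 FPKM in control cells without LPS. Both libraries with LPS were far above both without, with intervals of 606 to 637 and 522 to 547 FPKM against 20.5 to 25.2 and 13.6 to 17.1 FPKM. As log2 ratios the differences were 4.72 in Spic-/- cells and 5.04 in control cells. In bulk RNA, fewer cells of a type and less RNA per cell cannot be told apart, here and below.

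Against all genes, 71 of 8098 (0.877%) had an LPS ratio at or above that of Fcgr2b in Spic-/- cells and 59 of 8050 (0.733%) did in control cells. Of all genes compared, 21.4% were at least 2-fold different with LPS in Spic-/- cells and 18.8% in control cells. Among the 5 Fc gamma receptor genes only Fcgr2b passed 2-fold as deposited, in both genotypes, while upper-quartile scaling puts 3 past it in Spic-/- cells, with Fcgr1 and Fcgr3 at -1.02. Its rank among all genes by FPKM was 210 with LPS and 3138 without LPS in Spic-/- cells, and 215 with LPS and 4137 without LPS in control cells. The sum of Fcgr2b and Fcgr3 had a log2 ratio of 1.60 in Spic-/- cells and 1.67 in control cells. It depends on how shared reads were divided between the 2 only through their difference in length (1462 and 1347 bases in GENCODE). It would not cover reads dropped or counted for both. Without LPS that sum was mostly Fcgr3, at 226 against 22.7 FPKM of Fcgr2b in Spic-/- cells and 201 against 15.3 FPKM in control cells.

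**Figure D1:**
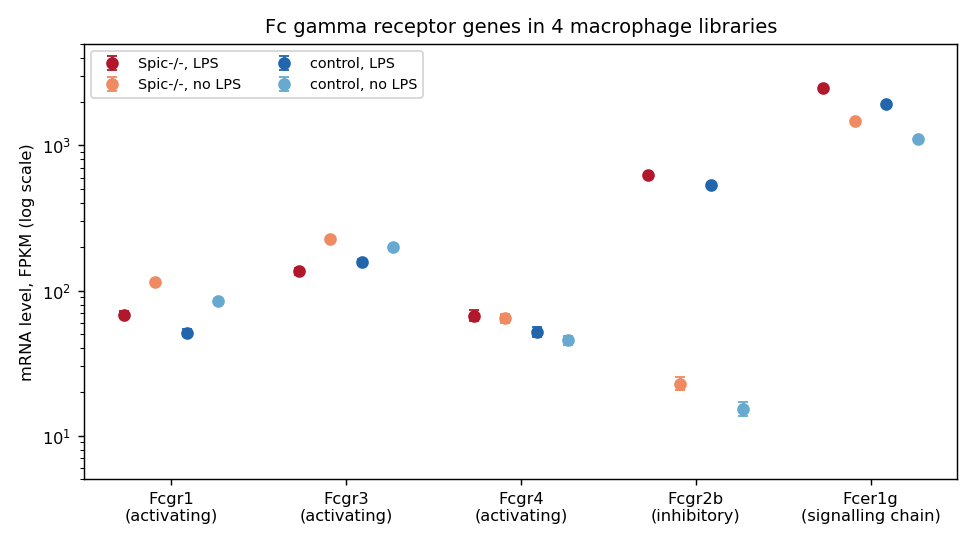
Level of each gene in FPKM on a log axis, 1 point per library in the order Spic-/- with LPS, Spic-/- without LPS, control with LPS and control without LPS; bars are 95% counting intervals, mostly smaller than the point, and there are no replicates. Fcgr2b stands at 622 and 535 FPKM in the libraries with LPS and at 22.7 and 15.3 FPKM in those without, while Fcgr1 and Fcgr3 are lower with LPS.

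The high-affinity receptor Fcgr1, the chain that binds monomeric IgG, was lower with LPS. It had 68.4 FPKM in Spic-/- cells with LPS and 115 FPKM in Spic-/- cells without LPS. It had 51.2 FPKM in control cells with LPS and 84.5 FPKM in control cells without LPS. The 4 intervals did not overlap, and within each genotype the library with LPS was the lower one. The fold was 0.593 (0.556 to 0.632) in Spic-/- cells and 0.607 (0.568 to 0.648) in control cells, with log2 ratios of -0.74 and -0.71.

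Fcgr3, a low-affinity receptor for immune complexes, had 136 FPKM in Spic-/- cells with LPS and 226 FPKM in Spic-/- cells without LPS. In control cells it had 157 FPKM with LPS and 201 FPKM without LPS. Both libraries with LPS were below both without, and no 2 of the 4 intervals overlapped. The fold was 0.599 (0.561 to 0.639) in Spic-/- cells and 0.781 (0.738 to 0.826) in control cells. As log2 ratios these were -0.74 in Spic-/- cells and -0.35 in control cells, and their difference of -0.38 lies inside the central 95% of 8272 genes, -0.49 to 0.47. The same difference was -0.32 for Fcgr2b and between -0.13 and -0.03 for the other 3 genes.

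Fcgr4, which binds complexes of the mouse subclasses IgG2a and IgG2b, had 67.3 FPKM in Spic-/- cells with LPS and 64.3 FPKM in Spic-/- cells without LPS. It had 51.9 FPKM in control cells with LPS and 45.3 FPKM in control cells without LPS. The intervals with and without LPS overlapped in each genotype, and both Spic-/- libraries were above both control libraries. The LPS fold was 1.05 (0.942 to 1.17) in Spic-/- cells and 1.14 (1.03 to 1.28) in control cells. Its log2 ratios of 0.07 and 0.19 change sign to -0.21 and -0.05 when libraries are scaled by their upper quartiles.

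The common chain Fcer1g was the most abundant member in every library and stood between rank 31 and rank 47 among all genes. It had 2476 FPKM in Spic-/- cells with LPS and 1467 FPKM in Spic-/- cells without LPS. It had 1929.6 FPKM in control cells with LPS and 1107 FPKM in control cells without LPS. Fcer1g was higher with LPS within each genotype, and the intervals of the 4 libraries did not overlap. The fold was 1.69 (1.64 to 1.74) in Spic-/- cells and 1.74 (1.69 to 1.80) in control cells.

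The order of the genes by level differed with LPS. Without LPS it was Fcer1g, Fcgr3, Fcgr1, Fcgr4 and Fcgr2b in both genotypes, and neighbours in that order did not overlap in their intervals. With LPS, Fcgr2b stood directly after Fcer1g, followed by Fcgr3, while Fcgr1 and Fcgr4 came last with intervals that overlapped in both genotypes. At 1.5-fold as deposited, Fcgr2b and Fcer1g were higher with LPS in both genotypes, where 25.4% of all genes compared were in Spic-/- cells and 23.1% in control cells. With upper-quartile scaling Fcer1g had log2 ratios of 0.47 in Spic-/- cells and 0.56 in control cells, both under 1.5-fold. Fcgr1 and Fcgr3 were at least 1.5-fold lower in Spic-/- cells, where 17% of genes were. Of the 5 genes Fcgr1 alone was in control cells as deposited, where 15.1% of genes were, and Fcgr3 passed it there at -0.60 with upper-quartile scaling. On the log2 scale 3 of the 5 genes were above 0 in each genotype, beside 57.2% of all genes in Spic-/- cells and 57.1% in control cells. The median log2 ratio of all genes compared was 0.12 in Spic-/- cells and 0.11 in control cells, and upper-quartile scaling moves it to -0.14 and -0.12. With that scaling the share of 2-fold genes that are higher is 44.3%, against 63.9% as deposited, in Spic-/- cells and 47.7%, against 65.5%, in control cells.

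**Figure D2:**
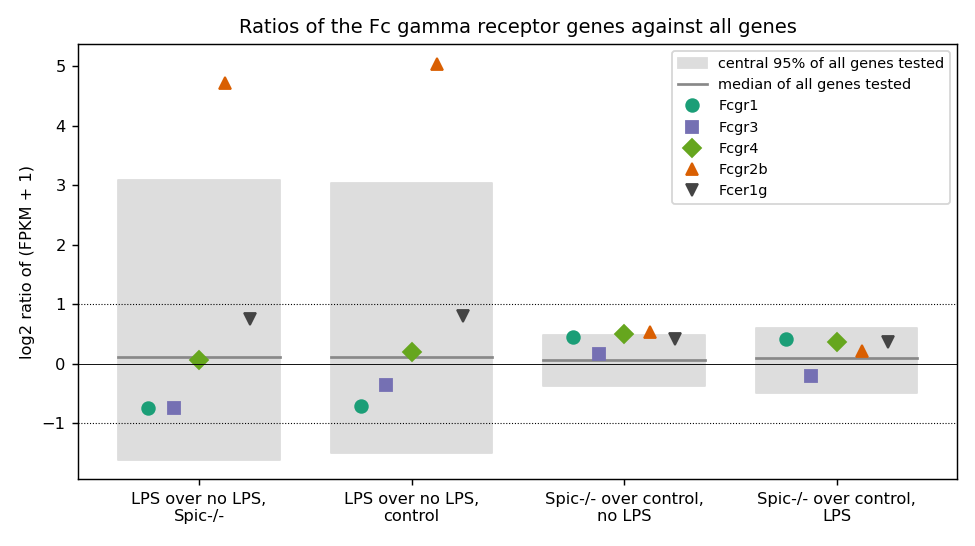
Log2 ratios of (FPKM + 1) of the 5 genes in the 4 comparisons, with the central 95% (grey) and the median (grey line) of all genes compared; dotted lines mark 2-fold. Fcgr2b lies above the grey range in both LPS comparisons, at 4.72 and 5.04. In Spic-/- over control without LPS, Fcgr2b at 0.54 and Fcgr4 at 0.50 lie slightly above its upper end of 0.49. No gene of the 5 passes 2-fold there.

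The mRNA balance of activating over inhibitory chains can be read inside a library, where it does not depend on scaling between libraries. The summed FPKM of Fcgr1, Fcgr3 and Fcgr4 over that of Fcgr2b was 0.436 (0.417 to 0.456) in Spic-/- cells with LPS and 17.9 (16.1 to 19.9) in Spic-/- cells without LPS. In control cells it was 0.486 (0.467 to 0.506) with LPS and 21.6 (19.2 to 24.2) without LPS. So the mRNA of the inhibitory chain exceeded that of the activating chains together in both libraries with LPS. In both libraries without LPS it was far below. These are mRNA ratios, and the libraries do not measure receptor protein. The ratio was 41.0 times lower with LPS in Spic-/- cells and 44.4 times lower in control cells. The activating sum alone differed far less: it was 271 FPKM with LPS and 406 FPKM without in Spic-/- cells, and 259.9 FPKM with LPS and 331 FPKM without in control cells.

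Each activating chain alone gave the same order. Fcgr1 over Fcgr2b was 0.110 with LPS and 5.08 without in Spic-/- cells, and 0.0958 with LPS and 5.52 without in control cells. Fcgr3 over Fcgr2b was 0.218 with LPS and 9.97 without in Spic-/- cells, and 0.293 with LPS and 13.1 without in control cells. Fcgr4 over Fcgr2b was 0.108 with LPS and 2.83 without in Spic-/- cells, and 0.0970 with LPS and 2.96 without in control cells. The ratio with Fcgr4 differed least, 26.1 times in Spic-/- cells and 30.5 times in control cells.

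As a share of the 4 ligand-binding chains, Fcgr2b made up 69.6% of their FPKM in Spic-/- cells with LPS and 5.30% without LPS. It made up 67.3% in control cells with LPS and 4.43% without LPS. Fcgr3 had the largest share without LPS, 52.8% in Spic-/- cells and 58.0% in control cells. Summed over the 4 chains, FPKM was 2.08-fold higher with LPS in Spic-/- cells (893 against 429) and 2.30-fold higher in control cells (795 against 346). Fcer1g over the 3 activating chains was 9.13 with LPS and 3.61 without in Spic-/- cells, and 7.42 with LPS and 3.35 without in control cells.

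**Figure D3:**
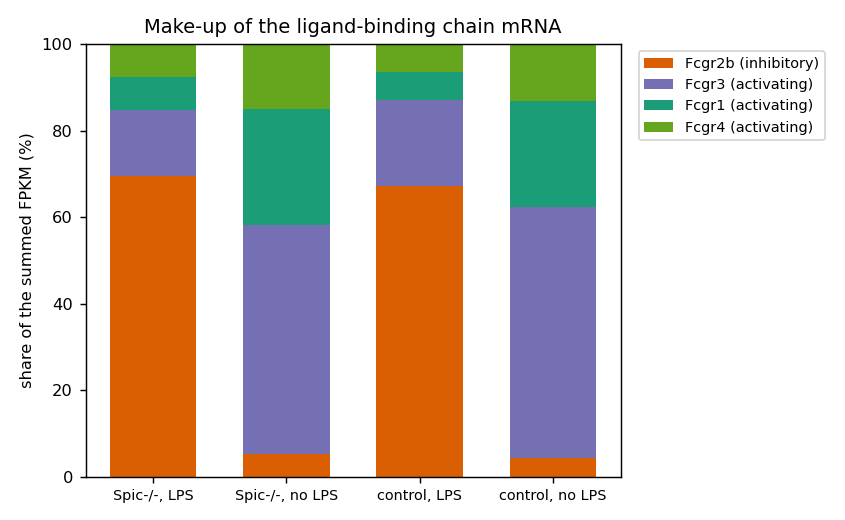
Share of each ligand-binding chain in the summed FPKM of Fcgr1, Fcgr3, Fcgr4 and Fcgr2b, in percent, 1 bar per library. Fcgr2b fills 69.6% and 67.3% of the bars with LPS, against 5.30% and 4.43% of those without.

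By genotype, the Fc gamma receptor genes were slightly higher in Spic-/- cells, with 1 exception. No gene of the 5 reached 2-fold at either condition, where 0.892% of all genes compared did with LPS (0.493% higher and 0.4% lower) and 0.902% did without LPS (0.49% higher and 0.412% lower). None of the 5 reached 1.5-fold either, a size that 2.86% of genes passed upward and 1.69% downward with LPS, and 1.75% upward and 1.37% downward without LPS. With LPS, Fcgr1 was 1.34-fold (1.24 to 1.44), Fcgr4 1.30-fold (1.16 to 1.46), Fcer1g 1.28-fold (1.25 to 1.32) and Fcgr2b 1.16-fold (1.12 to 1.20) the control level, and Fcgr3 was at 0.864 (0.804 to 0.929) of it. Without LPS, Fcgr2b was at 1.48 (1.27 to 1.74), Fcgr4 at 1.42 (1.28 to 1.57), Fcgr1 at 1.37 (1.30 to 1.43), Fcer1g at 1.33 (1.29 to 1.37) and Fcgr3 at 1.13 (1.07 to 1.18) of the control level. Thus 4 of 5 were above 0 on the log2 scale with LPS, beside 68.1% of all genes, and 5 of 5 without LPS, beside 68.9%.

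The median log2 ratio of the 5 genes was 0.36 with LPS, against 0.09 for all genes, and 0.45 without LPS, against 0.07. Without LPS, 2.05% of genes were at or above Fcgr2b, 2.47% at or above Fcgr4, 3.32% at or above Fcgr1, 4.25% at or above Fcer1g and 24.3% at or above Fcgr3. With LPS, 7.07% were at or above Fcgr1, 8.66% at or above Fcgr4, 9.38% at or above Fcer1g and 23.6% at or above Fcgr2b, and 8.91% were at or below Fcgr3. The activating to inhibitory ratio in Spic-/- cells was 0.898 of the control ratio with LPS and 0.828 of it without LPS. Without Fcgr3 in the sum those values are 1.13 and 0.934, so its direction with LPS rests on Fcgr3. Upper-quartile scaling moves the median of all genes to -0.06 with LPS and -0.04 without LPS and that of the 5 genes to 0.21 and 0.33. It leaves 39.1% of the 2-fold genes higher in Spic-/- cells with LPS, against 55.2% as deposited, and 43.3% without LPS, against 54.3%.

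Markers of other cells and of macrophages also differed by genotype beside these values. The summed stromal and endothelial markers were lower in Spic-/- cells (353 against 609 FPKM with LPS, 302 against 565 FPKM without), with Acta2, smooth muscle actin, at 118 against 243 FPKM and 109 against 237 FPKM. The 10 macrophage markers had a median log2 ratio of 0.22 with LPS and 0.23 without LPS, against 0.09 and 0.07 for all genes. Of the 10, 7 were above 0 in each, near the 68.1% and 68.9% of all genes. Among them Cd14, the LPS co-receptor, had 4092 against 3523 FPKM with LPS and 234 against 114 FPKM without, Emr1 (F4/80) had 790.3 against 644 FPKM and 549 against 439 FPKM, and Lyz2, lysozyme, was lower in Spic-/- cells (3419 against 5620.4 FPKM with LPS, 4014 against 6340.4 FPKM without). The 3 neutrophil markers that reached 5 FPKM had a median of -0.69 with LPS and -0.12 without LPS, with S100a8 at 114 against 214 FPKM with LPS. Their part in the genotype ratios of the Fc receptor genes was not tested.

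The pathway around the receptors was read through 8 lists of genes, described by counts because no test is possible. Of the kinases, adaptors and enzymes downstream of an ITAM, 9 of 27 were at least 2-fold higher and 1 lower with LPS in Spic-/- cells, where 13.7% of all genes were higher and 7.74% lower. In control cells 9 of 25 were higher and 1 lower, where 12.3% of all genes were higher and 6.5% lower. Syk, the kinase that binds the phosphorylated ITAM, had 343 FPKM with LPS and 57.3 FPKM without in Spic-/- cells, and 274 FPKM with LPS and 51.1 FPKM without in control cells. Malt1, a protease of the Card9 and Bcl10 complex, had 195 FPKM with LPS and 5.86 FPKM without in Spic-/- cells, and 154 FPKM with LPS and 4.44 FPKM without in control cells. The adaptor Lcp2 (SLP-76) had log2 ratios of 3.05 in Spic-/- cells and 2.86 in control cells, and the tyrosine kinase Src 3.43 and 3.56 in the same order, which holds for all paired LPS ratios that follow. The single lower gene was the adaptor Lat2, at -1.41 and -1.21 and named here after its values were seen. The median of the list was 0.37 in Spic-/- cells and 0.40 in control cells, and 0.10 and 0.17 with upper-quartile scaling.

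Of the phosphatases and adaptors downstream of an ITIM, 0 of 10 were at least 2-fold higher with LPS and 2 were lower, in each genotype, beside 13.7% higher and 7.74% lower of all genes in Spic-/- cells and 12.3% and 6.5% in control cells, so that with 10 genes the counts are near the background. Inpp5d, the SHIP1 phosphatase that Fcgr2b recruits, had 8.71 FPKM with LPS and 53.6 FPKM without in Spic-/- cells, and 9.67 FPKM with LPS and 53.7 FPKM without in control cells. Both libraries with LPS were thus low for Inpp5d where they were high for Fcgr2b. The adaptor Dok2 had log2 ratios of -1.73 and -1.67, Csk, a kinase that restrains Src-family kinases, -0.71 and -0.64, and the adaptor Dok3 -0.74 and -0.37. The median of the list was -0.03 in Spic-/- cells and 0.09 in control cells, and -0.31 and -0.15 with upper-quartile scaling.

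Other inhibitory receptors of myeloid cells were mixed, with 3 of 15 at least 2-fold higher and 2 lower with LPS in each genotype, near the shares of all genes (13.7% and 7.74% in Spic-/- cells, 12.3% and 6.5% in control cells). Lilrb3, the symbol in the tables for Pirb, had 456 FPKM with LPS and 189 FPKM without in Spic-/- cells, and 403 FPKM with LPS and 159 FPKM without in control cells. Siglece, a sialic acid receptor, had 35.4 FPKM with LPS and 11.4 FPKM without in Spic-/- cells, and 15 FPKM with LPS and 4.29 FPKM without in control cells. It was the 1 gene of that list past 2-fold by genotype, with log2 ratios of 1.19 with LPS and 1.23 without LPS, where 0.493% and 0.49% of all genes were at least 2-fold higher. Havcr2 (Tim-3) had LPS ratios of -2.03 and -1.99, and Cd300a -1.85 and -1.65.

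Receptors that pair with Fcer1g or its relative Tyrobp were 2 of 13 higher and 1 lower at 2-fold with LPS in each genotype, again near the shares of all genes (13.7% and 7.74% in Spic-/- cells, 12.3% and 6.5% in control cells). Clec4e (Mincle), a glycolipid receptor that signals through Fcer1g, had 1988 FPKM with LPS and 61.8 FPKM without in Spic-/- cells, and 1466 FPKM with LPS and 29.4 FPKM without in control cells. Without LPS it was at a log2 ratio of 1.04 in Spic-/- over control cells. Clec4d, its partner, had 2036 FPKM with LPS and 1201 FPKM without in Spic-/- cells, and 1829 FPKM with LPS and 1037 FPKM without in control cells. Clec5a, a Tyrobp partner, had LPS ratios of 1.85 and 2.28. Cd300lb had 5.66 FPKM with LPS and 116 FPKM without in Spic-/- cells, and 7.62 FPKM with LPS and 102 FPKM without in control cells.

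**Figure D4:**
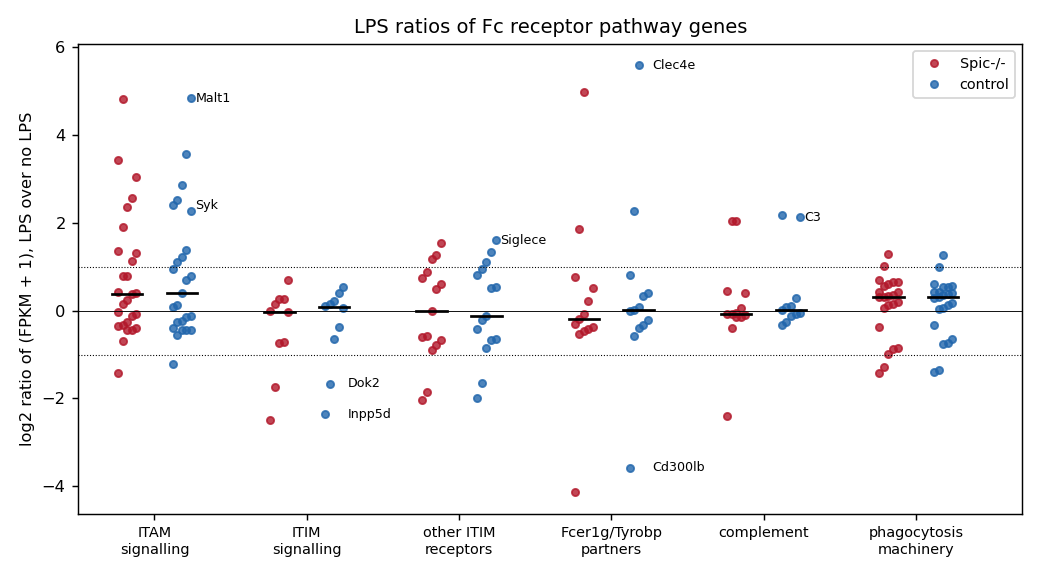
LPS over no LPS log2 ratios of (FPKM + 1) for genes of 6 lists, 1 point per gene, Spic-/- left of control in each list; black lines are medians and dotted lines mark 2-fold. ITAM signalling holds 9 points above the upper dotted line in each genotype and ITIM signalling none, with Inpp5d at -2.49 and -2.36 as its lowest point.

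Of 13 other Fc receptors, Fc receptor-like genes and IgG-binding proteins, 4 reached 5 FPKM in a library. Trim21, a cytosolic receptor for antibody-coated particles, had 79.8 FPKM with LPS and 13 FPKM without in Spic-/- cells, and 56.2 FPKM with LPS and 11.6 FPKM without in control cells. Fcgrt, the neonatal receptor that recycles IgG, had log2 ratios of -0.48 and -0.11. Fcrl1 and Fcrls, Fc receptor-like genes, had LPS ratios of -1.35 and -0.98, and of -0.63 and -0.42.

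The machinery of uptake held few genes past 2-fold. For the actin and membrane genes of phagocytosis, 2 of 23 were at least 2-fold higher and 2 lower with LPS in Spic-/- cells, and 1 higher and 2 lower in control cells, beside 13.7% higher and 7.74% lower of all genes in Spic-/- cells and 12.3% and 6.5% in control cells. The median of the list was 0.32 in both genotypes, against 0.12 and 0.11 for all genes. With upper-quartile scaling it was 0.04 in Spic-/- cells and 0.08 in control cells, against -0.14 and -0.12 for all genes. Rac2, a small GTPase of the phagocytic cup, had log2 ratios of 1.29 and 1.27, and the actin-binding Coro1a had 456 against 225 FPKM in Spic-/- cells and 304 against 152 FPKM in control cells, whereas Wipf1 had -1.28 and -1.35 and the myosin Myo1f -1.41 and -1.40. Complement receptors and opsonins, the other main opsonic route, had 2 of 13 higher and 1 lower in Spic-/- cells, and 2 of 11 higher and 0 lower in control cells, near the shares of all genes given above. C3 and Cfb, an opsonin and a convertase component, had LPS ratios of 2.04 and 2.13, and of 2.04 and 2.19, and Gpr77 (C5ar2), another receptor for the fragment C5a, -2.39 in Spic-/- cells. In control cells Gpr77 had 0.527 FPKM with LPS and 4.81 FPKM without, under the minimum of 5 FPKM, so it is not in that count. By genotype the complement list had a median log2 ratio of 0.37 with LPS and 0.43 without LPS, against 0.09 and 0.07 for all genes, and 12 of 12 were above 0 in each, beside 68.1% and 68.9% of all genes. With and without LPS, its named genes were C3 at 0.63 and 0.72 and Cfb at 0.57 and 0.73. Itgax (CD11c) reached the minimum only with LPS, at 0.48, and Gpr77 only without LPS, at 0.58.

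The list of regulators of Fc gamma receptor genes held transcription factors and cytokine receptors, and also Jak kinases and the inhibitors Socs1 and Socs3. In Spic-/- cells 11 of 21 were at least 2-fold higher and 1 lower with LPS, beside 13.7% higher and 7.74% lower of all genes. In control cells 10 of 21 were higher and 3 lower, beside 12.3% and 6.5% of all genes. Jak2, Socs1 and Socs3 were among the higher genes in both genotypes. Irf1 had 323 FPKM with LPS and 34.1 FPKM without in Spic-/- cells, and 258 FPKM with LPS and 27.1 FPKM without in control cells. Jak2 had log2 ratios of 3.61 and 3.67, and the cytokine signalling inhibitors Socs1 4.86 and 4.90 and Socs3 7.53 and 8.26. Sfpi1, the symbol in the tables for PU.1 and a gene added after its values were seen, had 661 FPKM with LPS and 322 FPKM without in Spic-/- cells, and 606 FPKM with LPS and 259 FPKM without in control cells. None of these genes reached 2-fold by genotype, where 0.892% of all genes did with LPS and 0.902% did without LPS.

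Most genes next to the receptors had LPS ratios far from that of Fcgr2b, and Adamts4 came near it. Within 100 kb of the 5 genes lie 30 others with rows, of which 13 reached 5 FPKM, among them Atf6, Dusp12, Sdhc, Pcp4l1, Tomm40l, Adamts4, B4galt3, Ppox, Usp21, Ufc1, Dedd and, beside Fcgr1, Bola1. With LPS, 1 was at least 2-fold higher and 2 were lower in both genotypes. Of all genes, 13.7% were higher and 7.74% lower in Spic-/- cells, and 12.3% and 6.5% in control cells. With 13 genes the counts are near these shares. Adamts4, a secreted protease 16.1 kb from Fcer1g, had 31.0 FPKM with LPS and 0.870 FPKM without in Spic-/- cells, and 25 FPKM with LPS and 1.05 FPKM without in control cells. Pcp4l1 had 8.52 FPKM with LPS and 26.0 FPKM without in Spic-/- cells, and 7.04 FPKM with LPS and 19.9 FPKM without in control cells. Bola1 had log2 ratios of -1.44 and -1.10. Fcgr4, 42.4 kb from Fcgr2b, and Sdhc, a respiratory chain subunit 62.2 kb from Fcgr3, had LPS ratios of at most 0.19. By genotype none of the 13 reached 2-fold, where 0.892% of all genes did with LPS and 0.902% did without LPS. The ratios of the 13 lay between -0.28 and 0.31 with LPS and between -0.36 and 0.37 without LPS.

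**Figure D5:**
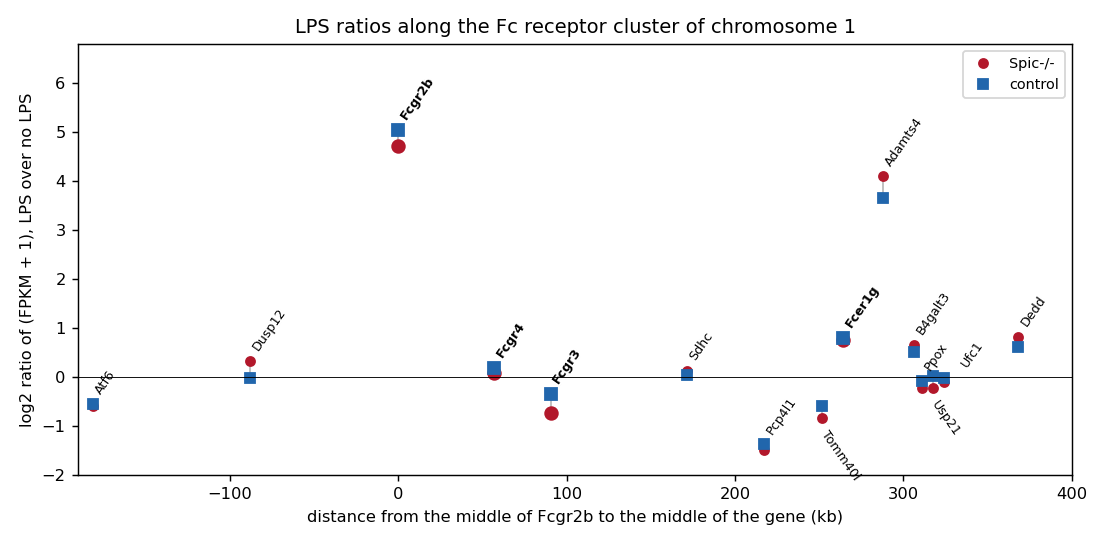
LPS over no LPS log2 ratio of (FPKM + 1) along chromosome 1, by distance in kb from the middle of Fcgr2b to the middle of each gene named above on that chromosome and of the Fc receptor genes; circles are Spic-/- cells, squares control cells, and names of Fc receptor genes are in bold. Fcgr2b and Adamts4 stand alone above the rest, with the other genes shown at or below 0.82.

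The genes whose pattern over the 4 libraries was nearest to each receptor gene, by Euclidean distance of centred log2(FPKM + 1) values among 7674 genes, differed for every member. For Fcgr2b they were Mx2, an interferon-induced GTPase, at 0.099, Wdr92 at 0.155 and Malt1 at 0.171. For Fcgr1 they were Gna12, a G protein subunit, at 0.038, the chemokine receptor Ccr1 at 0.093 and Adam8 at 0.099. For Fcgr3 they were Lage3 and Cdk2, both at 0.027, and Pgls at 0.054. For Fcgr4 they were Folr2, a folate receptor of macrophages, at 0.041, Acp2 at 0.078 and Nr1h3 (LXR alpha) at 0.085. For Fcer1g they were Eif3j at 0.048, Trib1 at 0.060 and Adam17 at 0.064. Among themselves the Fc receptor genes were farther apart than from these nearest genes. Fcgr1 and Fcgr3, the nearest pair, stood at 0.512. By nearness among the 7674 genes, Fcgr3 ranked 995 from Fcgr1, and Fcgr1 ranked 2198 from Fcgr3. Fcgr2b was 4.101 to 5.606 from the other 4 and ranked 7613 to 7624 from them.

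The promoters are shown because the genes stand close together and yet differ in their ratios. Each line gives the 60 bases before the first exon of the GENCODE transcript, from the RefSeq promoter table on GRCm38.p6 (for Fcgr3, the first of its 2 entries), 5′ to 3′ on the gene's strand, with GGAA, the ETS core, and its reverse complement TTCC in capitals. The positions are chr3:96293970-96294029 for Fcgr1, chr1:171059404-171059463 for Fcgr3, chr1:171018860-171018919 for Fcgr4, chr1:171234366-171234425 for Fcer1g and chr1:170976128-170976187 for Fcgr2b.
Fcgr1: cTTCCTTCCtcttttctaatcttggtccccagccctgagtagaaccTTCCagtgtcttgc
Fcgr3: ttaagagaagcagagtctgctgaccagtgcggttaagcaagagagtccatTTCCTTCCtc
Fcgr4: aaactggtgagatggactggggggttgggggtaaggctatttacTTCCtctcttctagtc
Fcer1g: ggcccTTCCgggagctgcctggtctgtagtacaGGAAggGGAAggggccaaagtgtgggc
Fcgr2b: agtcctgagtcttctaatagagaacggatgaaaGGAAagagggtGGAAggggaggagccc

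Every window held at least 1 match, 3 in Fcgr1 and Fcer1g, 2 in Fcgr3 and Fcgr2b and 1 in Fcgr4. The core is short and common: 49% of the 27025 promoters in the RefSeq table held it on either strand in the 60 bases before their start. That share is for windows at the RefSeq start, and those above end at the GENCODE start. The GENCODE start lies 56 bases before the RefSeq start for Fcgr2b, 16 for Fcer1g and 6 for Fcgr4. For Fcgr1 and Fcgr3 the starts are the same. Over 250 bases before the RefSeq start and on both strands, the longer motif GAGGAA was in Fcgr1, Fcgr3 and Fcgr4 and in 23.1% of all promoters. GGAAGT was in Fcgr1, Fcgr4 and Fcgr2b and in 20% of all, and these 2 motifs can overlap each other and the core. TTCNNNGAA, a STAT-type motif, was in Fcgr1 and in 7.18% of all. The interferon response motif, searched with free bases in its middle, was in Fcgr4 and in 3.04%. The NF-kappaB motif, searched likewise, was in Fcgr3, Fcgr4, Fcer1g and Fcgr2b and in 17.3%, and TGANTCA, an AP-1 type, was in none of the 5 and in 6.87%. Aligned over those 250 bases, Fcgr3 and Fcgr2b, the pair most alike in coding sequence, were identical at 46.2% of aligned bases, within the 45.8% to 60% of all pairs. These are matches of letters in a window and not binding sites.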

How the data were processed

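RNA of 4 macrophage libraries, 1 per group, was analysed from the authors' tables of FPKM per gene. The labels' protocols name RNeasy columns for RNA and a TruSeq stranded mRNA kit for libraries. The submitters' processing notes list Cuffnorm 2.2.1, TopHat2 2.0.13, SAMtools 0.1.19 and Bowtie2 2.2.3 and the build mm10, without role or order. The sources used here do not give the gene annotation, the read length or whether strand was counted. The deposited FPKM values are scaled to transcript length and between libraries by the authors, and no counts were used. Their median-ratio factors were 0.998 with LPS and 1.00 without in both genotypes, so the libraries were already level by that measure. Their sums were not: 819232 FPKM with LPS and 525348 without in Spic-/- cells, and 736818 with LPS and 500123 without in control cells.

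Log2 ratios of (FPKM + 1) were taken for genes with 5 FPKM or more in at least 1 library of a comparison. With 1 library per group no test or replicate error can be had, and differences are read against all genes compared. Depth was estimated from the spacing of FPKM values up to 0.5 of genes with a single GENCODE M21 transcript (71.5% to 75.3% of them came out whole within 0.1 fragment, after deducting 210 bases from each length), so fragment numbers are approximate. Intervals are 95% Poisson intervals for levels, Clopper-Pearson intervals for folds and approximate intervals for ratios within a library, and cover counting error only. Scripts were tested on simulated data. Python 3.11.15, pandas 2.3.3, numpy 2.4.6, scipy 1.17.1, matplotlib 3.10.9 and Biopython 1.88 were used, with coordinates and sequences from GENCODE M21 and the RefSeq promoter table, which held all 5 genes.

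The members and lists were chosen with earlier results of these data known. Of 228 list symbols 227 were matched, 3 of them by a RefSeq synonym. Named were the members, Spic, up to 4 genes per pathway list with the largest ratio in any comparison, up to 3 genes per marker list with the highest FPKM, the 3 nearest patterns per member and neighbours within 100 kb that reached 5 FPKM; other names are marked as chosen after their values were seen, as were Mpo, Fcer1a and Ms4a2, markers at 0. Several marker genes and a neighbouring gene that the rule covers are not reported here. Alternatives were other pseudocounts, minimum levels, folds and scalings, Fcgr2b and Fcgr3 summed, and other forms of the activating to inhibitory ratio.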

Additional observations from a re-analysis of the deposited data

Results flagged for a closer look

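Fcgr3 was the 1 gene of the 5 whose genotype ratio had opposite signs at the 2 conditions. In Spic-/- over control cells its log2 ratio was -0.21 with LPS (136 against 157 FPKM) and 0.17 without LPS (226 against 201 FPKM). As deposited, each was beyond its counting interval. The value without LPS depended on the scaling: with upper-quartile scaling it was 0.06, and that with LPS was -0.36. It was also near the median of all genes, 0.07, with 24.3% of genes at or above it. Summed with Fcgr2b, the ratios were 0.13 with LPS and 0.20 without LPS. The difference between the conditions was not tested, since each group had 1 library. Part of the Fcgr3 transcript cannot be told from Fcgr2b, which stood at 622 and 535 FPKM with LPS and at 22.7 and 15.3 FPKM without LPS in Spic-/- and control cells, and the part of that shared sequence in these ratios was not tested.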

How the results depend on the processing

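Of 156 values recomputed under another setting, 107 moved by less than their counting interval (for counts of genes, less than 1.5 times). The other 49 moved by more. Sign changes were counted only for values past 2-fold. Of the log2 ratios only those of Fcgr2b with LPS were, so the count of 0 says little. Smaller ratios did change sign. With upper-quartile scaling the LPS ratio of Fcgr4 went from 0.07 to -0.21 in Spic-/- cells and from 0.19 to -0.05 in control cells. The LPS ratio of Fcgr3 stayed below 0 under the 4 other pseudocounts and scalings. It was between -1.02 and -0.72 in Spic-/- cells and between -0.60 and -0.35 in control cells. The sum of Fcgr3 and Fcgr2b is another quantity, mostly Fcgr2b with LPS. Its LPS ratios were 1.60 and 1.67, where Fcgr3 alone had -0.74 and -0.35. In Spic-/- over control cells with LPS the sum had 0.13 and Fcgr3 alone -0.21. The log2 LPS ratio of Fcgr2b was 4.50 with a pseudocount of 5 FPKM, 4.43 with upper-quartile scaling and 1.60 summed with Fcgr3 in Spic-/- cells, and 4.73, 4.80 and 1.67 in control cells. Its Spic-/- over control ratio with LPS was 0.07 with upper-quartile scaling and 0.13 summed with Fcgr3, and without LPS 0.20 when summed. Upper-quartile scaling put 3 of the 5 genes past 2-fold with LPS in Spic-/- cells, since Fcgr1 and Fcgr3 were then both at -1.02. The activating to inhibitory ratio without Fcgr3 was 0.218 with LPS and 7.91 without LPS in Spic-/- cells, and 0.193 and 8.47 in control cells, and from estimated fragments it was 0.498, 21.1, 0.529 and 24.9 in that order. Across these forms it was 36.2 to 42.3 times lower with LPS in Spic-/- cells and 41.7 to 47.0 times in control cells.

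The number of genes at 2-fold depended on the settings. For LPS in Spic-/- cells it was 1736 as reported, 1079 with a minimum of 20 FPKM, 1155 with a pseudocount of 5 FPKM and 833 at 3-fold, and in control cells 1515 as reported, 943 with a minimum of 20 FPKM and 747 at 3-fold. For Spic-/- over control with LPS it was 67 as reported, 106 with a minimum of 1 FPKM and with none, 44 with a minimum of 20 FPKM, 43 with a pseudocount of 5 FPKM, 29 at 3-fold and 40 without small RNA and unnamed rows, a setting chosen after seeing the data. Without LPS it was 70 as reported, 40 with a pseudocount of 5 FPKM, 33 at 3-fold and 40 without those rows. The causes of these shifts were not tested, beyond the fewer or more genes that each minimum and fold admits. No paired analysis was possible because each group had 1 library, and for that reason no library could be left out. Depth limits Fcgr2b without LPS most, with an estimated 367 fragments in Spic-/- cells and 298 in control cells.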
